A study of Rattus norvegicus with 50 samples.

Results

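The genes described here are the nuclear receptor superfamily as measured in rat liver after brain injury. A list of 41 gene symbols gave the members, and 35 of them were on the array table, each represented by its probe with the highest mean, among 14506 genes in all. Nr2e3, Nr5a1, Nr6a1, Rarb, Rora and Rorb were not analysed here. Esr1 had 2 probes and every other member had 1. Nuclear receptors are transcription factors with a DNA-binding domain and, in most members, a pocket for a small lipophilic ligand such as a bile acid, a fatty acid, a steroid or a drug. Many pair with a retinoid X receptor and sit on copies of a short DNA half-site. In liver they set bile acid synthesis, fatty acid burning, drug-metabolising enzymes and the identity of the hepatocyte.

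Liver RNA came from 50 male Sprague Dawley rats of about 3 months, 1 Affymetrix Rat Gene 1.0 ST array per rat, in 10 groups of 5. In 9 groups the brain was injured by controlled cortical impact (CCI), a mechanical contusion of the cortex. These rats received erythropoietin (EPO, 2500 IU/kg, the growth factor of red cell precursors), anakinra (100 mg/kg, an antagonist of the interleukin-1 receptor) or vehicle (saline), and livers were taken at 24 h, 72 h or 7 days. The last group was intact sham, for which the labels give no injection and no time, so injury, injection, handling and time of collection cannot be told apart in any comparison with it. The tissue was punches of the median lobe, a mixture of cell types, so fewer cells of a type and less RNA per cell cannot be told apart.

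All values are log2 robust multi-array average (RMA) values, on which a difference of 1 is a 2-fold change, and differences between groups are given on that scale with their standard error (SE). A member is called where the limma p, adjusted by Benjamini-Hochberg over all 14506 genes, is under 0.05. The labelled tissue was borne out by hepatocyte markers, whose mean log2 value lay between 13.05 and 13.17 in the 9 injured groups and was 13.18 in sham. Array medians lay between 6.66 and 6.89. The SD over all probes was low in 5 arrays, called narrow here (1.99 to 2.04, against 2.06 to 2.16 in the others), and 4 of them were vehicle arrays.

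Many nuclear receptors bind the half-site AGGTCA, read as TGACCT on the other strand, whereas the glucocorticoid and mineralocorticoid receptors bind a different one. It was looked for on both strands in windows of 300 bases, 250 before and 50 after each annotated gene start, taken from RefSeq (GRCr8). Of the measured members 29 had a window, and 4 of them, Rarg, Nr5a2, Esrrg and Nr0b1, held a match. That was 4 of 37 member windows (10.8%), beside 5415 of 33469 windows of all genes (16.2%). The windows of Nr5a2, Rarg and Esrrg are shown because these are the genes, among the 4 called against sham further on, that hold a match. The other, Nr3c1, had 2 windows and 0 matches. Capitals mark the half-site, and every sequence runs 5′ to 3′ on the strand of its gene. Nr5a2, on the minus strand at chr13:50984889-50985188, held it 2 times in the forward direction. Rarg, on the minus strand at chr7:135268840-135269139, held it 1 time in reverse, in 1 of its 2 windows. Esrrg, on the plus strand at chr13:101755510-101755809, held it 1 time in reverse, in 1 of its 4 windows. A match is a description of the letters only.
Nr5a2: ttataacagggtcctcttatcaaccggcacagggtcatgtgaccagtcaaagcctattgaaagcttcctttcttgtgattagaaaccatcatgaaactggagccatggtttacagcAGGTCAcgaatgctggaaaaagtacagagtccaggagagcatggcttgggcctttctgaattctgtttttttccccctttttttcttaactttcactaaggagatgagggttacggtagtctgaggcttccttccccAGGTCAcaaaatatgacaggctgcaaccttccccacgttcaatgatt
Rarg: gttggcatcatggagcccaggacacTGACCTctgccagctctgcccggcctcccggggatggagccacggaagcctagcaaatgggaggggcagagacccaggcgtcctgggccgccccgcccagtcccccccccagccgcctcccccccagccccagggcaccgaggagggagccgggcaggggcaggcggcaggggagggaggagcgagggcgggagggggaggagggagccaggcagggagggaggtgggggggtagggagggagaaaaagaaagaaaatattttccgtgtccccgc
Esrrg: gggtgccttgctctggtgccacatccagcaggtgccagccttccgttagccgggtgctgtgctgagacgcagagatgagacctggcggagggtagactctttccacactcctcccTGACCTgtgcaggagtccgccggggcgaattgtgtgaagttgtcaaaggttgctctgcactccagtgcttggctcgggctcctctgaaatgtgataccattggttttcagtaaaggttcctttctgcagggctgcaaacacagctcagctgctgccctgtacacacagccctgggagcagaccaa

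Of the 35 receptors, 5 differed among the 10 groups. They were the estrogen receptor gene Esr1 (adjusted p = 0.0141), the bile acid synthesis regulator Nr5a2 (0.0162), the orphan receptor gene Esrrg (0.0211), the HNF4 paralogue Hnf4g (0.0272) and Esrrb (0.0372), all by the limma F test. That is 14.3% of members, against 5.67% of all genes. The other 30 did not pass. At an unadjusted p under 0.05 there were 14 members (40%), against 18.6% of all genes. Esr1 passed without any 1 of the 50 arrays, whereas Esrrb was lost without each of 10 arrays (adjusted p up to 0.104), and its p was 0.106 when the 5 narrow arrays were dropped. Nr5a2 was lost without sham array 5 (0.0509), Esrrg without sham array 2 or 3 (up to 0.0909) and Hnf4g without sham array 2 or vehicle array 3 or 5 at 24 h (up to 0.0590). Over this test and the 22 others reported here, 10 members (28.6%) were called at least once, against 11% of all genes, and 25 were called in none. Of the 10, Hnf4g and Esrrb were called in the F test alone. Shares of all genes, here and below, include the genes under the median gene (mean log2 value 7.23), whereas 6 of the 35 members lay there. When only the 7253 genes at or above the median were tested, the F test called 645 of them, and 4 of the 29 members among them.

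**Figure D1:**
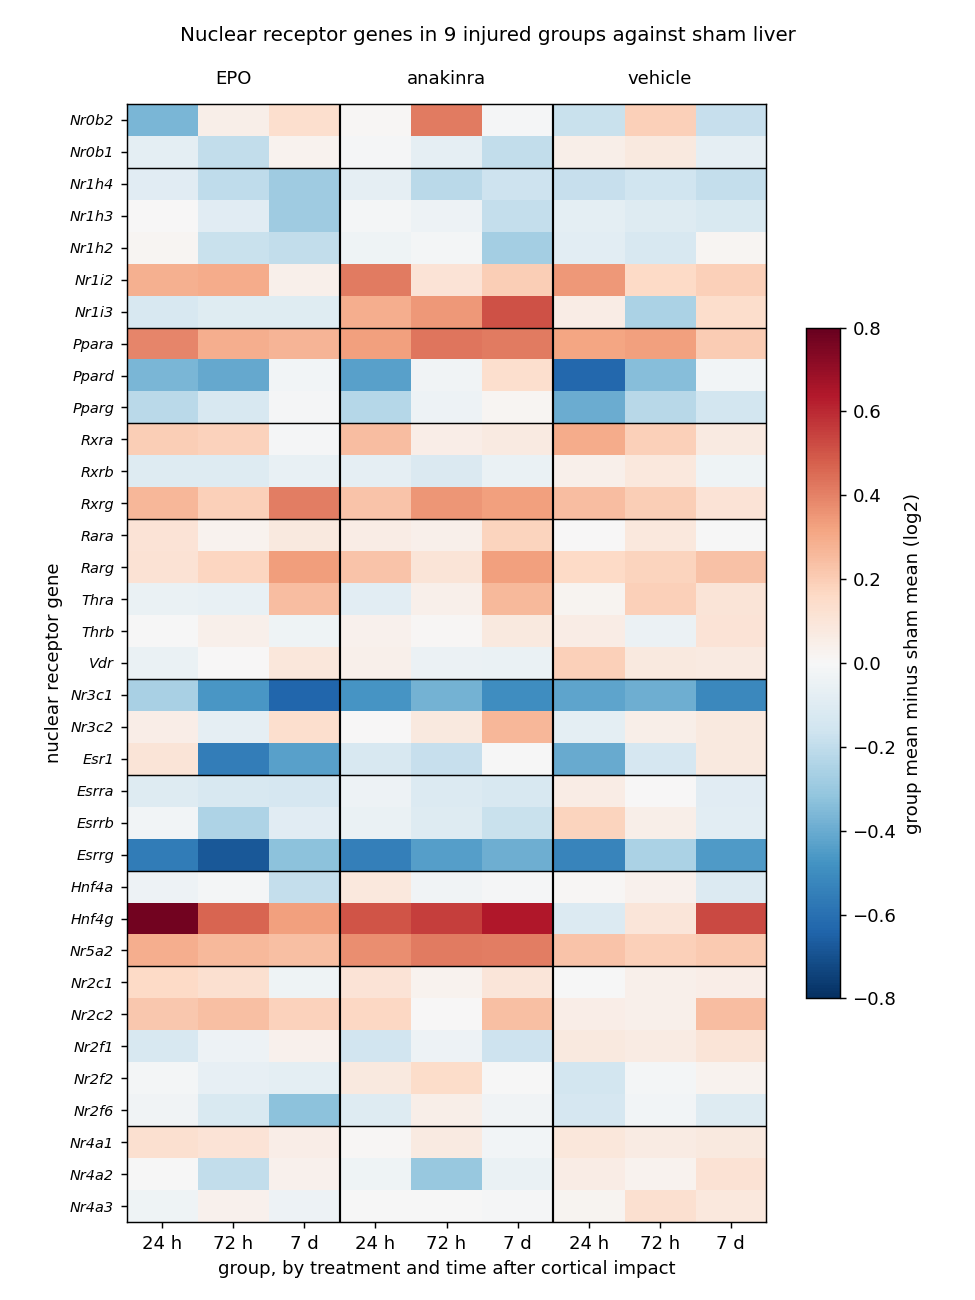
Mean of each injured group minus the sham mean (log2, colour) for the 35 nuclear receptor genes (rows, grouped by role with black lines) in 9 groups (columns, EPO, anakinra and vehicle, each at 24 h, 72 h and 7 d; n = 5 rats each). Esrrg, Nr3c1 and Nr1h4 are below sham in all 9 columns, and Nr5a2, Ppara, Rarg, Nr1i2, Nr2c2 and Rxrg are above it in all 9.

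Against sham, 4 members were called in injured livers, namely Esrrg, Nr5a2, Nr3c1 and Rarg. At each time the 3 treatment groups were averaged, so livers given EPO or anakinra are part of each value. The average was set against the 5 sham arrays. Those 5 arrays are shared by all 3 times, so a member called at several times is not independent evidence. Members called numbered 2 at 24 h, 2 at 72 h and 4 at 7 days, that is 5.71%, 5.71% and 11.4% of members, against 1.23%, 0.372% and 2.09% of all genes. The median difference of the 35 members was -0.01 at 24 h, 0.00 at 72 h and 0.03 at 7 days, against 0.02, 0.01 and 0.01 for all genes.

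Esrrg encodes estrogen-related receptor gamma, an orphan receptor that is active without a known natural hormone and drives genes of mitochondrial metabolism. In injured livers its values ran from 7.78 to 8.42 (median 8.03) at 24 h, from 7.66 to 8.57 (median 8.12) at 72 h and from 7.81 to 8.59 (median 8.20) at 7 days, 15 arrays each, against 8.28, 8.32, 8.59, 8.75 and 8.98 in sham. Of the injured arrays, 13, 12 and 10 of 15 lay below every sham array at the 3 times, and none lay above the sham range. Esrrg fell by 0.55 at 24 h (SE 0.11, adjusted p = 0.00406), by 0.46 at 72 h (SE 0.11, adjusted p = 0.0420) and by 0.39 at 7 days (SE 0.11, adjusted p = 0.0467). The average at 72 h includes the EPO livers, whose arrays all lay below every vehicle array at that time, as given further on. The call at 24 h was lost without sham array 2 (adjusted p = 0.0542). At 72 h it was lost without each of 11 arrays (adjusted p up to 0.304) and at 7 days without each of 15 (up to 0.261). Both calls also ended without the narrow arrays and with arrays scaled to a common SD (adjusted p up to 0.0636). The call at 7 days ended too when only the groups compared were fitted (0.0752).

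Set against sham by vehicle alone, Esrrg was the single member called at 24 h. Its vehicle values were 7.80, 7.87, 8.03, 8.17 and 8.42, so 4 of 5 lay below every sham array. The difference was -0.53 (SE 0.14, limma adjusted p = 0.0441), in a comparison that called 0.827% of all genes. It was lost without any of vehicle arrays 2, 3 and 4 or sham arrays 2, 3 and 4 (adjusted p up to 0.166). Dropping the narrow arrays gave 0.102, and the call was also absent when only these 2 groups were fitted (0.174). The next members were the common partner Rxra (0.30, SE 0.08, adjusted p = 0.0810, and 0.0448 with scaled arrays) and the fatty acid receptor gene Ppard (-0.63, SE 0.20, adjusted p = 0.127). Vehicle against sham called 0 members at 72 h and 0 at 7 days, with 3 and 6 at an unadjusted p under 0.05 (8.57% and 17.1%, against 12.1% and 6.52% of all genes). It also called 0 of all genes at both times. The members with the smallest p at 72 h were Nr3c1 (-0.39, SE 0.14, adjusted p = 0.396), Nr5a2 (0.19, SE 0.08) and Rxra (0.19, SE 0.08). At 7 days they were Nr3c1 (-0.52, SE 0.14, adjusted p = 0.609), Esrrg (-0.45, SE 0.14) and Rarg (0.23, SE 0.09), and all 5 vehicle arrays lay above every sham array for Rarg.

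Nr5a2 encodes LRH-1, which activates bile acid synthesis genes in hepatocytes. Its values in injured livers ran from 9.90 to 10.51 (median 10.10) at 24 h, from 9.92 to 10.35 (median 10.17) at 72 h and from 9.87 to 10.36 (median 10.17) at 7 days, against 9.77, 9.81, 9.84, 9.88 and 9.94 in sham. The sham arrays were close together at the bottom of the range, and 14, 12 and 13 of 15 injured arrays lay above all of them. Nr5a2 rose by 0.30 at 24 h (SE 0.07, adjusted p = 0.0139), by 0.29 at 72 h (SE 0.07, adjusted p = 0.0385) and by 0.29 at 7 days (SE 0.07, adjusted p = 0.0208). At 24 h and 7 days the call was lost without sham array 2, 3 or 5 (adjusted p up to 0.0782), at 72 h without each of 10 arrays (up to 0.139), and at 24 h when only these groups were fitted (0.0526). Anakinra groups had the highest means, 10.22 ± 0.20, 10.26 ± 0.07 and 10.26 ± 0.07 at 24 h, 72 h and 7 days, against 10.08 ± 0.13, 10.04 ± 0.14 and 10.06 ± 0.14 in vehicle (SD, n = 5 each). Averaged over the times anakinra minus vehicle was 0.19 (SE 0.05), with an adjusted p of 0.0993 that did not pass.

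Nr3c1, the glucocorticoid receptor gene, was called at 7 days. Injured livers then had values from 9.93 to 10.81 (median 10.37), against 10.57, 10.81, 10.94, 11.06 and 11.16 in sham, and 12 of 15 injured arrays lay below every sham array. Nr3c1 fell by 0.55 (SE 0.12, adjusted p = 0.00938), a call lost without sham array 2 (0.0725). The differences were -0.38 at 24 h (SE 0.12, adjusted p = 0.107) and -0.41 at 72 h (SE 0.12, adjusted p = 0.10), which did not pass, although 8 and 11 of 15 arrays lay below every sham array. The 72 h difference passed with array weights (0.00374) and when only the groups compared were fitted (0.0391), and the 24 h difference passed with array weights. Nr3c2, the mineralocorticoid receptor gene, was not called at any time.

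Rarg, one of the retinoic acid receptor genes, was the one member with no overlap between the 15 injured livers of a time and sham. All 15 injured livers at 7 days (7.31 to 7.73, median 7.47) lay above the sham arrays at 7.07, 7.17, 7.17, 7.21 and 7.21. That is 1 of 35 members (2.86%), against 0.372% of all genes at 7 days. At 24 h and 72 h the counts were 0 members, against 0.421% and 0.145% of all genes. Rarg rose by 0.30 (SE 0.08, adjusted p = 0.0264). The call was lost without sham array 1, 2, 3 or 5 (adjusted p up to 0.106) and when arrays were scaled to a common SD (0.0650). At 24 h and 72 h the differences were 0.17 (SE 0.08, adjusted p = 0.412) and 0.15 (SE 0.08, adjusted p = 0.494). Every sham value of Rarg lay below the mean of the median gene (7.23), and its mean over the 50 arrays (7.35) lay just above it. No detection call is given.

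**Figure D2:**
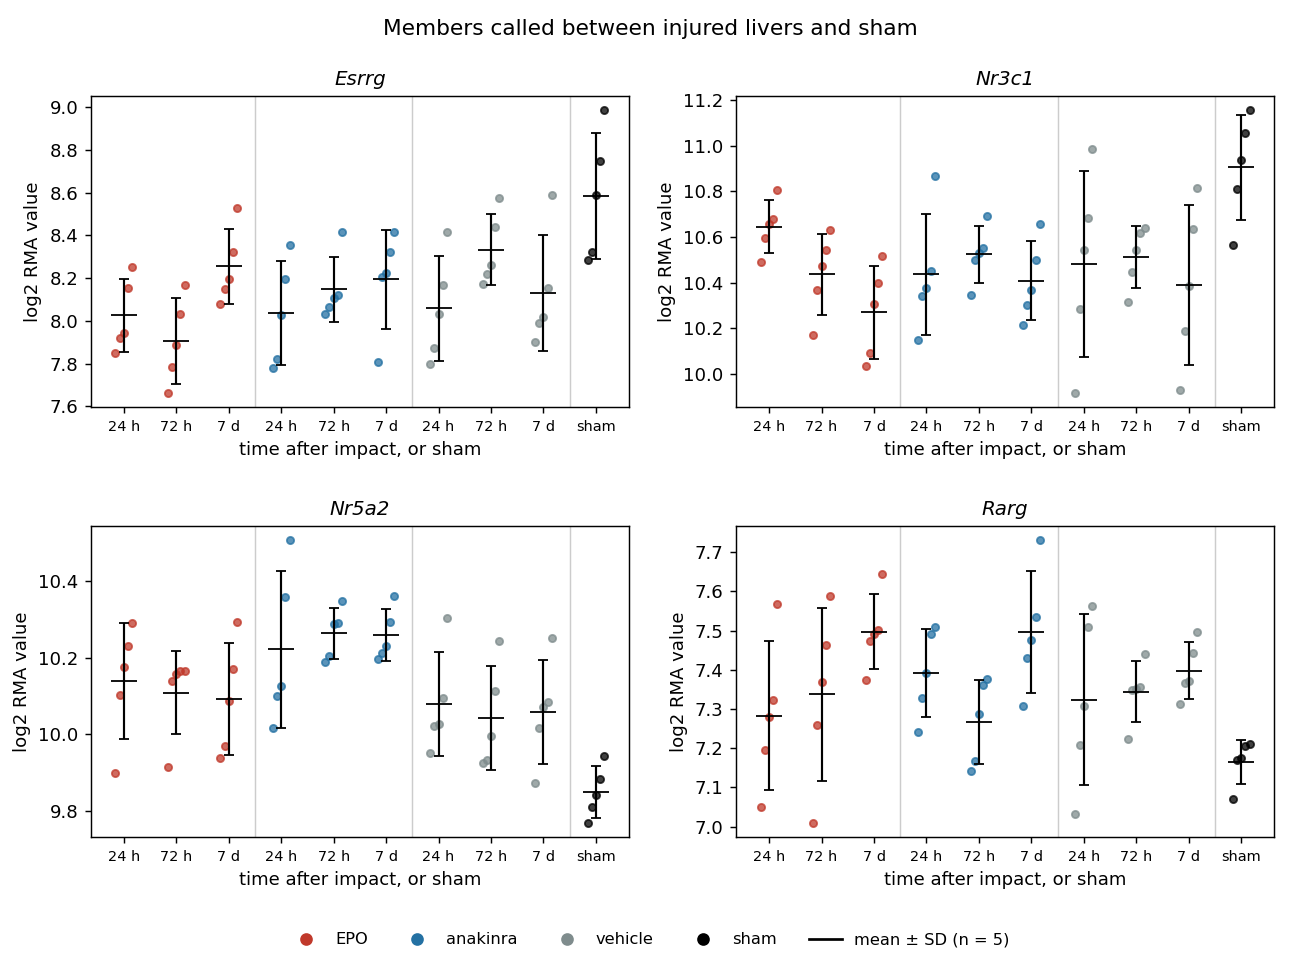
Log2 RMA values of Esrrg, Nr3c1, Nr5a2 and Rarg on each array (points, coloured by treatment) with the mean ± SD of each group (n = 5). Sham at the right is high for Esrrg and Nr3c1 and low for Nr5a2, and the 15 livers at 7 d lie above sham for Rarg.

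Beside these values, of the 8 hepatocyte markers 0 were called at any time between injured livers and sham. Erythroid markers were called higher at 72 h (5 of 8) and 7 days (3 of 8), and their mean log2 value was 10.08 in EPO livers at 72 h and 9.65 in EPO livers at 7 days, against 7.00 in sham. In the other injured groups it lay between 6.79 and 7.47. Neutrophil markers were called higher at 72 h for 2 of 6. The part of these cells in the receptor values was not tested. At 24 h 0 markers of any of the cell types looked at were called.

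The main hepatic receptors of bile acids, oxysterols and foreign compounds were not called against sham. Nr1i2, which encodes the pregnane X receptor PXR, a drug sensor that induces P450 enzymes, had values from 9.63 to 10.71 in injured livers at 24 h, against 9.35 to 9.93 in sham. Its difference was 0.35 (SE 0.12, adjusted p = 0.158), with 9 of 15 arrays above every sham array, then 0.19 at 72 h and 0.14 at 7 days (SE 0.12 each). Nr1i3, the gene of CAR, the partner sensor that controls the Cyp2b enzymes, differed from sham by at most 0.18 (SE 0.19, 95% interval from -0.19 to 0.56 at 7 days). Nr1h4, the bile acid receptor gene FXR, differed by -0.12, -0.19 and -0.21 at 24 h, 72 h and 7 days (SE 0.08 each), and the smallest adjusted p was 0.149. For Nr1h3, the oxysterol receptor gene LXR alpha, the differences were -0.03, -0.08 and -0.20 (SE 0.10 each).

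Hnf4a, a determinant of hepatocyte identity, differed from sham by 0.02 at 24 h (SE 0.08, 95% interval from -0.14 to 0.17) and by -0.10 at 7 days (SE 0.08, 95% interval from -0.26 to 0.05). Ppara, which turns on fatty acid oxidation, averaged 0.35, 0.35 and 0.30 above sham at 24 h, 72 h and 7 days (SE 0.15 each). Its adjusted p-values were 0.376, 0.361 and 0.302, and sham values from 9.71 to 10.68 spanned most of the injured range of 9.83 to 10.99. Rxra, the retinoid X receptor form that predominates in liver, was 0.25 above sham at 24 h (SE 0.07, adjusted p = 0.0610), with 13 of 15 arrays above every sham array. That p passed with array weights (0.0258), with scaled arrays (0.0478) and when only genes above the median were tested (0.0368). None of the 3 NR4A genes, which respond early to stress signals, and none of the 5 TR2, TR4 and COUP-TF genes was called at any time. The means of Nr4a1 (5.99), Nr4a3 (5.87) and Nr2f1 (7.18) lay below the median gene (7.23), and no detection call is given.

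The 9 injured groups were then compared between times, which needs no sham array. No uninjured livers are labelled with these times, so injury, injection, handling and time of collection cannot be told apart here either. Between 24 h and 7 days, 3 members changed (8.57% of members, against 5.02% of all genes). Ppard, which encodes PPAR delta, a fatty acid receptor present in many tissues, ran from 8.35 to 9.49 (median 8.69) at 24 h, from 8.32 to 9.58 (median 8.95) at 72 h and from 8.65 to 9.63 (median 9.26) at 7 days. The ranges overlapped, and 3 of 15 arrays at 7 days lay above every array at 24 h. Ppard rose by 0.51 over that interval (SE 0.12, limma adjusted p = 0.00483). Sham arrays held 8.76, 8.95, 9.07, 9.62 and 9.68, so that the arrays at 24 h were the low ones, with 9 of 15 below every sham array (difference -0.48, SE 0.17, adjusted p = 0.186, called with array weights). Pparg, the adipocyte paralogue, differed by 0.23 over the same interval (SE 0.08) with an adjusted p of 0.0565 that did not pass. It was called with array weights, without the narrow arrays and when only genes above the median were tested.

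Rxra moved the other way. It ran from 11.14 to 11.58 (median 11.29) at 24 h, from 10.97 to 11.53 (median 11.23) at 72 h and from 10.98 to 11.37 (median 11.10) at 7 days, and 10 of 15 arrays at 7 days lay below every array at 24 h. Rxra fell by 0.20 (SE 0.05, adjusted p = 0.00790). Its sham values of 10.98, 11.02, 11.08, 11.14 and 11.19 overlapped those at 7 days, when 4 of 15 injured arrays lay above every sham array. Thra, a thyroid hormone receptor gene whose paralogue Thrb is the main liver form, ran from 7.22 to 7.80 (median 7.38) at 24 h, from 7.31 to 8.12 (median 7.51) at 72 h and from 7.35 to 8.10 (median 7.65) at 7 days. Thra rose by 0.24 (SE 0.07, adjusted p = 0.0231), and 4 of 15 arrays at 7 days lay above every array at 24 h. Ppard and Rxra kept the call without any 1 of the 30 arrays and under all 8 alternatives run, and Thra was lost only without vehicle array 4 at 24 h (0.050).

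**Figure D3:**
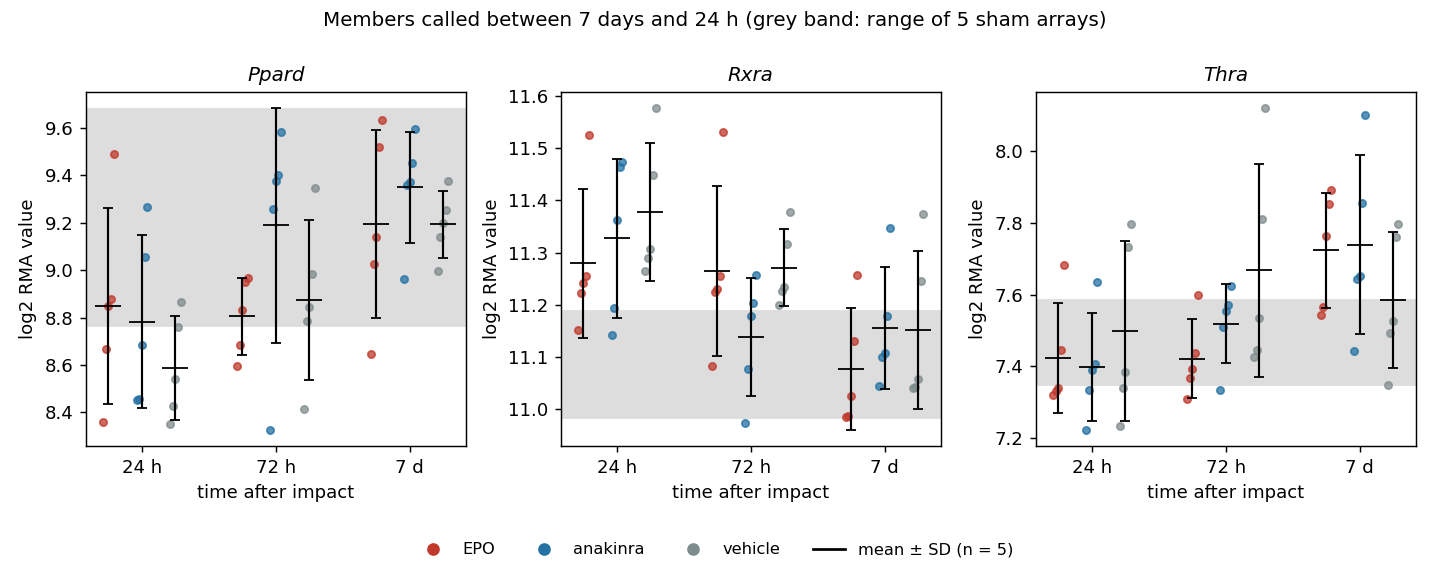
Log2 RMA values of Ppard, Rxra and Thra on each array at 24 h, 72 h and 7 d after impact (points coloured by treatment, mean ± SD, n = 5 per group); the grey band is the range of the 5 sham arrays. Ppard and Thra are higher and Rxra lower at 7 d than at 24 h.

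From 24 h to 72 h, 0 members were called (1.57% of all genes). At an unadjusted p under 0.05 there were 2 members (5.71%, against 10.8% of all genes), and the smallest p belonged to Esrrb (-0.14, SE 0.05, adjusted p = 0.211, and 0.0185 with array weights), Rxra (-0.10, SE 0.05) and Pparg (0.15, SE 0.08). From 72 h to 7 days, 0 were called (0.103% of all genes). At an unadjusted p under 0.05 there were 5 (14.3%, against 7.80% of all genes), led by Rarg (0.15, SE 0.05, adjusted p = 0.449), Nr3c2 (0.14, SE 0.05) and Ppard (0.29, SE 0.12). Between EPO and vehicle livers at 7 days, none of Ppard, Rxra and Thra differed by more than 0.14 (limma adjusted p = 1.00 each, 5 arrays per group). Erythroid markers were called higher at 7 days than at 24 h for 7 of 8, and in EPO over vehicle at 7 days for 8 of 8. The part of these cells in the values of Ppard, Rxra and Thra was not tested.

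Each drug was then set against vehicle at the same time, which asks whether treatment after injury changed the receptors. In these 6 comparisons 0 members were called by limma. EPO against vehicle called 0.0276%, 2.72% and 0.365% of all genes at 24 h, 72 h and 7 days, with 5, 6 and 2 members at an unadjusted p under 0.05. Those are 14.3%, 17.1% and 5.71% of members, against 10.8%, 20.0% and 4.97% of all genes. Anakinra against vehicle called 0.00%, 0.00% and 0.0138% of all genes, with 4 members under 0.05 at each time (11.4%, against 4.25%, 10.7% and 7.62% of all genes). The 5 vehicle arrays of a time serve both drugs, so the drugs' values at a time are not independent of each other.

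Hnf4g, a paralogue of Hnf4a best known in gut and kidney, had the largest difference of any member between a drug and vehicle. At 24 h it had 8.13, 8.28, 8.45, 8.51 and 8.63 in EPO livers, against 6.93, 7.19, 7.69, 7.85 and 7.93 in vehicle livers. Anakinra livers at that time had 7.62, 7.76, 8.12, 8.54 and 8.60. All 5 EPO arrays and 3 of 5 anakinra arrays lay above every vehicle array, and sham (7.18 to 7.96) overlapped vehicle. The EPO difference was 0.88 (SE 0.21, 95% interval from 0.46 to 1.30) with an adjusted p of 0.189, which became 0.0230 with array weights. For anakinra it was 0.61 (SE 0.21, adjusted p = 0.901). At 7 days the EPO difference was -0.20 (SE 0.21). By then vehicle livers had 7.22, 8.13, 8.31, 8.43 and 8.68. Whether the EPO difference changed with time did not pass (F test adjusted p = 0.292, and 0.481 for Esrrg). For Hnf4g it passed with array weights (0.0369) and without vehicle array 3 at 7 days (0.0391). Over all treatments, 8, 9 and 12 of 15 injured arrays had Hnf4g above every sham array at 24 h, 72 h and 7 days. Below every sham array lay 1, 1 and 0. Against sham Hnf4g was not called in the main fit, but it was with array weights at all 3 times and without the narrow arrays at 7 days.

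Esr1, which encodes estrogen receptor alpha, was the one member whose EPO difference changed with time (limma F test adjusted p = 0.0213; 2.86% of members, against 0.214% of all genes). At 24 h it had 9.68, 9.78, 9.85, 9.97 and 10.01 in EPO livers, against 8.70, 9.29, 9.38, 9.53 and 9.87 in vehicle livers. At 72 h the values were 8.94, 8.97, 9.16, 9.25 and 9.70 in EPO livers, against 9.26, 9.42, 9.75, 9.76 and 9.94 in vehicle livers. At 7 days they were 9.09, 9.10, 9.37, 9.50 and 9.56 in EPO livers, against 9.55, 9.60, 9.83, 9.88 and 10.32 in vehicle livers. EPO livers were the high ones at 24 h, when 2 of 5 lay above every vehicle array, and the low ones later, when 4 of 5 lay below every vehicle array at both times.

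The EPO differences of Esr1 were 0.51 at 24 h, -0.42 at 72 h and -0.51 at 7 days (SE 0.16 each). None of the 3 passed alone (adjusted p = 0.442, 0.132 and 0.298). Sham values lay between 9.68 and 9.85. They overlapped the EPO values at 24 h and 72 h and the vehicle values at all 3 times, and all 5 EPO arrays at 7 days lay below them. The second Esr1 probe gave differences of 0.29, -0.39 and -0.38. The change with time was lost without each of 4 arrays taken at 24 h, EPO 3 and 4 and vehicle 3 and 5 (adjusted p up to 0.0776), and when only the EPO and vehicle groups were fitted (0.184). Without the narrow arrays it was 0.0310, and the 72 h difference was then -0.61 (adjusted p = 0.0407). With anakinra the differences from vehicle were 0.28, -0.05 and -0.08 (SE 0.16 each), and no member changed with time there (Nr2f2, Thra and Nr1h2 had the smallest p, adjusted p = 1.00 each; 0.00% of all genes; 0 members at an unadjusted p under 0.05).

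Esrrb and Esrrg were the members nearest the threshold at 72 h under EPO. Esrrb had 5.85, 5.88, 5.92, 6.25 and 6.28 in EPO livers, against 6.09, 6.26, 6.40, 6.43 and 6.48 in vehicle livers (difference -0.29, SE 0.09, adjusted p = 0.0602). It passed without EPO array 1 or 4 or vehicle array 4 (adjusted p down to 0.0149). Its mean lay below the median gene (7.23 on the log2 scale), and the table holds no detection call. Esrrg had 7.66, 7.78, 7.89, 8.03 and 8.17 in EPO livers, against 8.17, 8.22, 8.26, 8.44 and 8.57 in vehicle livers. All 5 EPO arrays lay below every vehicle array, with a difference of -0.43 (SE 0.14, adjusted p = 0.0762). At this time markers of other cells were called higher in EPO livers, 8 of 8 erythroid, 6 of 7 Kupffer cell, 4 of 6 neutrophil, 3 of 7 lymphocyte, 2 of 6 endothelial and 1 of 6 stellate cell. The mean log2 value of the Kupffer list was 9.48 in EPO livers and 8.79 in vehicle livers, while that of the hepatocyte list was 13.12 in both. The part of these cells in the values of Esr1, Esrrb and Esrrg was not tested. At 24 h 0 markers were called between EPO and vehicle livers.

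**Figure D4:**
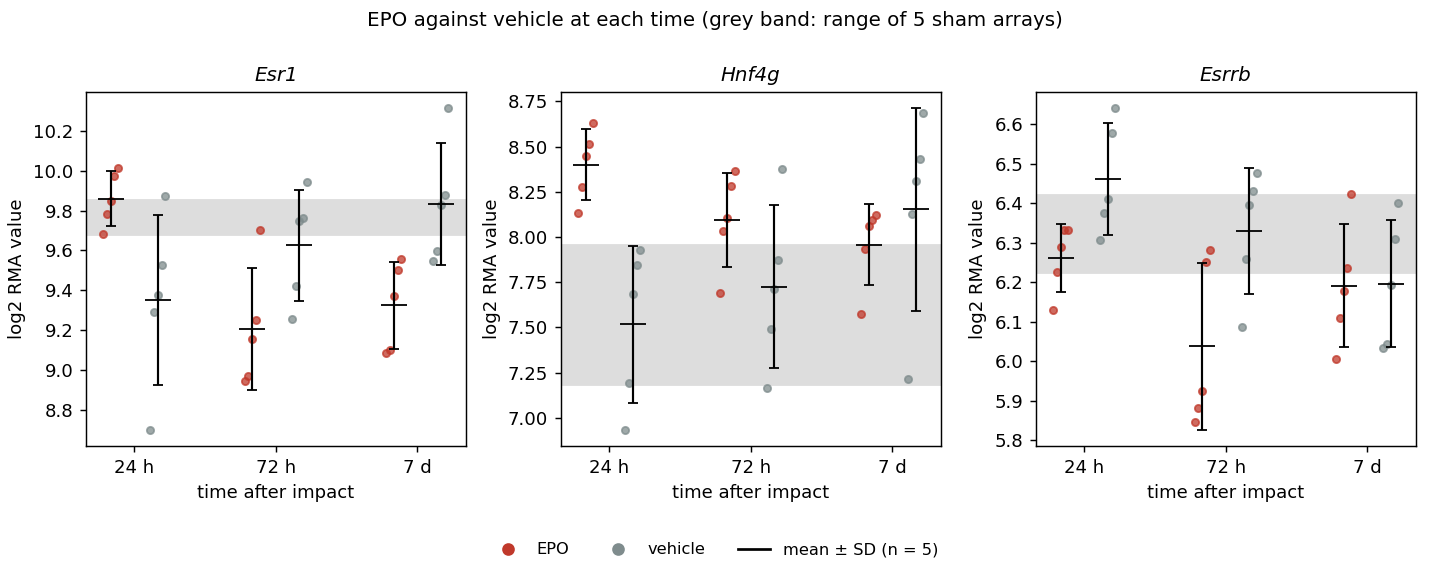
Log2 RMA values of Esr1, Hnf4g and Esrrb on each array in EPO and vehicle livers at 24 h, 72 h and 7 d (points, mean ± SD, n = 5); the grey band is the range of the 5 sham arrays. For Esr1 the EPO mean is above vehicle at 24 h and below it at 72 h and 7 d, and for Hnf4g the 5 EPO arrays at 24 h lie above the 5 vehicle arrays.

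Averaged over the 3 times, EPO called 0 members (2.41% of all genes) and anakinra 0 (0.0551% of all genes). At an unadjusted p under 0.05 there were 5 members for EPO (14.3%, against 20.5% of all genes) and 8 for anakinra (22.9%, against 21.4%). The nearest for EPO were Esrrb (-0.17, SE 0.05, adjusted p = 0.0664), Hnf4g (0.35, SE 0.12) and Rxrb (-0.12, SE 0.04). For anakinra they were Nr2f1, the COUP-TF1 gene (-0.20, SE 0.05, adjusted p = 0.0811, and 0.0208 with array weights), Nr5a2, given above, and Hnf4g (0.39, SE 0.12, adjusted p = 0.142). Nr2f1 had 11 of 15 anakinra arrays below all vehicle arrays, and its mean (7.18) lay below the median gene (7.23). At 24 h and 7 days the anakinra difference of Nr2f1 was -0.23 and -0.27 (SE 0.08 each). Other members with a small p under anakinra were Esrrb at 24 h (-0.23, SE 0.09), Rxrb at 72 h (-0.20, SE 0.07) and Nr3c2 at 7 days (0.19, SE 0.09). Under EPO they were Nr2f1 at 24 h (-0.21, SE 0.08, adjusted p = 0.442), and Rxrg (0.30, SE 0.11, adjusted p = 0.619) and Thrb (-0.14, SE 0.09) at 7 days. For Rxrg, a retinoid X receptor gene, all 5 EPO arrays at 7 days lay above every vehicle array. Over all treatments, 9, 10 and 10 of 15 injured arrays had Rxrg above every sham array at 24 h, 72 h and 7 days, and 0 lay below. With array weights Rxrg was called against sham at 72 h and 7 days. Nr1i3 was the xenobiotic receptor with the largest anakinra difference. At 72 h it had 8.81, 8.99, 9.12, 9.20 and 9.60 in anakinra livers, against 7.94, 8.31, 8.42, 8.95 and 9.12 in vehicle livers (0.60, SE 0.23, adjusted p = 0.454). Over the times the Nr1i3 difference was 0.40 (SE 0.13, adjusted p = 0.148). EPO against anakinra called 0 members at 24 h, 72 h and 7 days (0.0207%, 1.94% and 0.441% of all genes), with 0, 3 and 4 members at an unadjusted p under 0.05 (0.00%, 8.57% and 11.4%, against 1.69%, 9.95% and 6.58% of all genes). Esr1 was 0.23, -0.37 and -0.43 in EPO minus anakinra at the 3 times (SE 0.16 each). Nr1i3 was -0.42 at 24 h and -0.61 at 7 days (SE 0.23 each). At 24 h Nr3c1 was at 0.21 (SE 0.14), at 72 h Nr2f2 at -0.21 (SE 0.09) and Nr2c2 at 0.24 (SE 0.11), and at 7 days Nr2f1 at 0.20 (SE 0.08). The smallest adjusted p of these was 0.362, and with array weights Nr2f2 passed (0.0355).

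The member that varied most among rats of a group was Nr0b2, which encodes SHP, a receptor-like corepressor that FXR induces and that represses bile acid synthesis. Its pooled SD within groups was 0.791, against a median of 0.175 over the members and 0.169 over all genes. Sham livers alone had 7.67, 8.08, 9.05, 9.65 and 10.78, and vehicle livers at 72 h had 7.83, 8.61, 9.04, 10.11 and 10.62. EPO livers at 72 h were close together, from 8.90 to 9.55. No group stood apart in its mean (limma F test adjusted p = 0.941). The 95% interval of the difference from sham at 24 h ran from -0.95 to 0.59. The next most variable members within groups were Nr1i3 (SD 0.385) and Hnf4g (SD 0.351), and the steadiest was Rxrb (SD 0.105).

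That spread allowed a look at whether receptors and genes they are known to control varied together from rat to rat. Of 21 receptor and target pairs listed, 18 were measured. Each was correlated over the 50 arrays after subtracting group means, with p from 100000 permutations within groups adjusted over the 18 pairs. The single pair called was Nr0b2 with Cyp7a1, the rate-limiting enzyme of bile acid synthesis (Pearson r = 0.488, permutation p = 0.00142, adjusted p = 0.0256; Spearman rho = 0.461, permutation p = 0.00274, adjusted p = 0.0493). Rats with more Nr0b2 than their group had more Cyp7a1. That sign is the opposite of the repression for which SHP is known, and the reason was not tested. Without the 2 arrays farthest from the median of Nr0b2 r was 0.481, and without the narrow arrays it was 0.544 (adjusted p = 0.0414). The call was lost without sham array 1 or 3, vehicle array 3 or 4 at 72 h, vehicle array 1 or 3 at 7 days or EPO array 1 at 24 h (adjusted p up to 0.103).

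**Figure D5:**
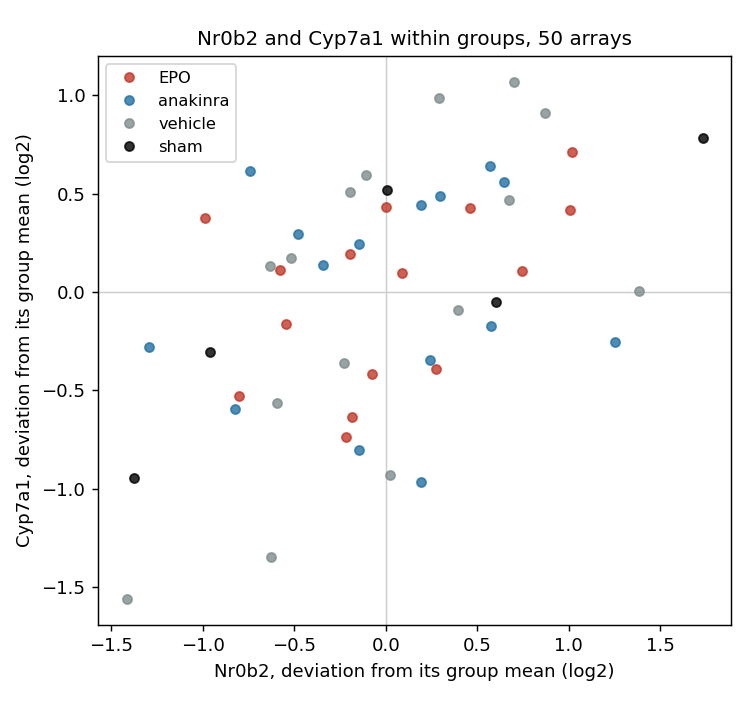
Deviation of Cyp7a1 from its group mean against that of Nr0b2 (log2, both axes) for the 50 arrays, coloured by treatment. The points rise together (r = 0.488), with the widest Nr0b2 deviations in sham livers and vehicle livers at 72 h.

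The other 17 pairs did not pass. Ppara with Cpt1a, the gate of mitochondrial fatty acid uptake, had r = 0.389 (adjusted p = 0.111), and Nr1i3 with its target Cyp2b1 had r = 0.360 (adjusted p = 0.111). Nr1h4 and the bile salt export pump gene Abcb11 had r = -0.337 (adjusted p = 0.111). Hnf4a with Ttr had r = 0.431 (adjusted p = 0.111), which was 0.007 once arrays were scaled to a common SD. Nr3c1 and Fkbp5, a gene that glucocorticoids induce, had r = -0.293 (adjusted p = 0.164). A pair can vary together through the array it is read from as well as through the animal, which was not tested beyond the scaled and narrow-array values given here.

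Lists kept beside the members held known targets of the receptors, coregulators, other receptors, genes of retinoid handling, and enzymes of vitamin D and other ligands. Together they made up 116 list entries. With the 3 treatments averaged, 7 of these were called against sham at 24 h (5 higher and 2 lower), beside 1.23% of all genes. At 72 h 3 were called (2 higher and 1 lower), beside 0.372%, and at 7 days 4 (2 higher and 2 lower), beside 2.09%. At 24 h after injury Abca1, the cholesterol exporter that LXR induces, rose by 0.38 (SE 0.07, adjusted p = 0.000779) while Scd, the fatty acid desaturase on the same list, fell by 1.73 (SE 0.47, adjusted p = 0.0477), 2 of 8 LXR targets measured. Of 17 PPAR alpha targets, the fatty acid hydroxylase genes Cyp4a1 (0.64, SE 0.15, adjusted p = 0.0189) and Cyp4a8 (0.73, SE 0.19, adjusted p = 0.0454) rose at 24 h. The lipase inhibitor gene Angptl4, on the same list, fell by 1.31 at 72 h (SE 0.25, adjusted p = 0.00340) and by 1.05 at 7 days (SE 0.25, adjusted p = 0.0177). Of 14 glucocorticoid receptor targets, Fkbp5 rose at 24 h (0.39, SE 0.10, adjusted p = 0.0448) and 0 were called at 72 h or 7 days. Nr3c1 itself averaged below sham at all 3 times and was called at 7 days. FXR targets gave 1 of 10, the bile acid ligase gene Slc27a5 (0.49, SE 0.12, adjusted p = 0.0271 at 24 h), which was also called at 72 h (0.52, SE 0.12, adjusted p = 0.0385). Abca1 was called at 72 h (0.30, SE 0.07) and 7 days (0.25, SE 0.07) as well. The liver pyruvate kinase gene Pklr, 1 of 9 HNF4 alpha targets, fell by 0.85 at 24 h (SE 0.19, adjusted p = 0.0112). The heme synthesis gene Alas1, 1 of 13 PXR and CAR targets, fell by 0.51 at 7 days (SE 0.14, adjusted p = 0.0467). None of the 11 retinoid genes measured was called at any of the 3 times, beside the rise of Rarg at 7 days. Vehicle alone against sham called 9 of the 116 entries at 24 h (3 higher and 6 lower), beside 0.827% of all genes. Cdkn1a (-1.09, SE 0.26), Plin2 (-0.83, SE 0.20), Ephx1 (-0.70, SE 0.15) and Gpd2 (-0.57, SE 0.13) were lower there. Ces2c was higher (0.75, SE 0.17), and none of these genes was called at 24 h in the average. At 72 h and 7 days vehicle alone called 0 entries.

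Between 24 h and 7 days 13 of the 116 entries were called, 5 higher and 8 lower, beside 5.02% of all genes. The carnitine transferase gene Cpt1a fell by 0.73 (SE 0.13, adjusted p = 0.000229), the P450 reductase gene Por by 0.54 (SE 0.10, adjusted p = 0.000264) and the tryptophan dioxygenase gene Tdo2 by 0.23 (SE 0.05, adjusted p = 0.00108). Scd rose by 1.73 (SE 0.33, adjusted p = 0.000595), and Pklr by 0.75 (SE 0.14, adjusted p = 0.000357). Ephx1 (0.38, SE 0.09) and Me1 (0.53, SE 0.16) were also higher at 7 days. Ces2c (-0.42, SE 0.10), F7 (-0.27, SE 0.07), Fkbp5 (-0.24, SE 0.07), Cyp4a8 (-0.44, SE 0.14) and Cyp27a1 (-0.23, SE 0.07) were lower. Of 14 coregulators measured, the coactivator gene Ncoa1 was called, rising by 0.18 (SE 0.05, adjusted p = 0.0157), and it was also higher than sham at 7 days (0.30, SE 0.07, adjusted p = 0.0116). Of the 4 other nuclear receptors measured outside the member list, 0 were called in either comparison by limma.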

How the data were processed

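The deposited table holds log2 values for 29214 probes on 50 arrays, which the authors made by RMA with oligo, per the submitters' processing notes; their versions are not given here. Of these probes 15310 carry 1 gene symbol, 323 several and 13581 none in the platform annotation. Each of the 14506 genes was read from its probe with the highest mean, and no other filter was applied. Groups came from the sample labels, 1 array per animal, so p-values measure the spread between animals as sampled here. limma 3.58.1 in R 4.3.3 (lmFit and eBayes, 10 group means, all 50 arrays, two-sided) gave differences, SE and p, adjusted by Benjamini-Hochberg over all genes. The code was tested on simulated data. Correlations, summaries and figures used Python 3.11.15, pandas 2.3.3, NumPy 2.4.6, statsmodels 0.14.6 and matplotlib 3.10.9.

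The members and lists were chosen with earlier results of these data known. In each comparison every called member was named, or the 3 with the smallest p, plus 10 liver receptors whatever they showed; further members given above for their values were chosen after these were seen. Alternatives were array weights, a trended and robust variance prior, only the groups compared, the replicate number as a block, no narrow arrays, scaled arrays, the mean of probes, only genes above the median, and each array left out. The number of arrays limits the precision, and the table holds no measure of background.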

Additional observations from a re-analysis of the deposited data

Results flagged for a closer look

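Esr1 is singled out because its EPO difference changed with time (adjusted p = 0.0213, limma F test). The difference was 0.51 at 24 h and -0.51 at 7 days. Hnf4g had an EPO difference of 0.88 at 24 h and of -0.20 at 7 days, in opposite directions, but the test of that change did not pass (adjusted p = 0.292). It passed with array weights (0.0369) and without vehicle array 3 at 7 days (0.0391).

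In 8 of 146 groups of 5 arrays examined over the named members, 1 array lay far from the other 4 by Dixon's criterion. Chance gives about 1 in 20. In anakinra livers at 72 h, array 5 had the lowest Ppard value at 8.32, against 9.26 to 9.58 in the others, and array 1 the lowest Pparg value at 7.33, against 7.76 to 7.91. In the same group array 2 was lowest for Esr1 at 9.38 (others 9.61 to 9.63), array 3 lowest for Nr2c2 at 8.23 (others 8.39 to 8.44) and array 5 highest for Esrrg at 8.41 (others 8.03 to 8.12). In EPO livers, array 3 at 72 h was lowest for Nr5a2 at 9.92 (others 10.14 to 10.17), and array 1 at 24 h was highest for Rxra at 11.53 (others 11.15 to 11.26). Sham array 1 was highest for Esrrb at 6.42 (others 6.22 to 6.28).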

How the results depend on the processing

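Of the 18 named values called, 3 were called under every alternative and with every array left out, and no named value reversed. With array weights 12 members were called among the 10 groups, and 6, 5 and 7 for injury against sham at 24 h, 72 h and 7 days. Between 24 h and 7 days 7 were called, and 2 for the change of the EPO difference with time. EPO against vehicle at 24 h, EPO against anakinra at 72 h, anakinra against vehicle averaged, and 24 h to 72 h had 1 each. Array weights also called more of all 14506 genes, 2145 among the 10 groups, against 823 in the main fit. For injury at the 3 times they called 608, 600 and 1170 genes, against 178, 54 and 303. Between 24 h and 7 days they called 1573, against 728. Fitting only the groups compared gave 0 for vehicle against sham at 24 h (48 of all genes). For injury at 24 h, 72 h and 7 days it gave 1, 3 and 3 (200, 61 and 359 of all genes). For the change of the EPO difference it gave 0 (13 of all genes). Without the narrow arrays the counts were 0 for vehicle against sham at 24 h (79 of all genes), 1 for EPO against vehicle at 72 h (282) and 1 for injury at 72 h (74). Scaled arrays gave 2 for vehicle against sham at 24 h (138 of all genes), 1 for injury at 72 h (50) and 2 at 7 days (190). The trended prior gave 1 for injury at 72 h (51 of all genes). Testing only genes above the median gave 2 for vehicle against sham at 24 h and 5 between 24 h and 7 days. Of the 7253 genes then tested, these comparisons called 147 and 842. For each of these the cause was not tested.

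Leaving out each array in turn gave 0 to 2 for vehicle against sham at 24 h, 0 to 3 for EPO against vehicle at 72 h, 0 to 4 for injury at 24 h, 0 to 2 at 72 h and 0 to 4 at 7 days. It gave 0 to 2 for each drug averaged, 2 to 5 between 24 h and 7 days, 3 to 6 among the 10 groups, 0 to 2 for the change of the EPO difference and 0 to 2 for the pairs. Without sham array 2 injury called 0 members at 24 h and 0 at 7 days. Deviations of arrays with the same replicate number had a mean correlation of 0.0125, against -0.00142 for arrays with other numbers. Same-number pairs ran from -0.582 to 0.720, with 78 of 225 over 0.1. Of 50 arrays, 15 were closest to an array of their own number. With the replicate number as a block the counts were 5 among the 10 groups, 2, 2 and 4 for injury and 3 between 24 h and 7 days. Of all genes the block called 803 among the 10 groups, 176, 68 and 304 for injury and 743 between 24 h and 7 days.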

Other observations

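Against vehicle, EPO called 5 of the 116 related list entries at 72 h, beside 2.72% of all genes. At 7 days it called 2, beside 0.365% of all genes. Of the 35 receptors 0 were called at either time. The fatty acid translocase gene Cd36, on the PPAR alpha list, rose by 1.5 at 72 h (SE 0.21, adjusted p = 5.69e-06) and by 1.14 at 7 days (SE 0.21, adjusted p = 0.00178) against vehicle. Ncoa4, known as a nuclear receptor coactivator and as the receptor for ferritin breakdown, rose by 0.68 at 72 h (SE 0.14, adjusted p = 0.00181) and by 0.64 at 7 days (SE 0.14, adjusted p = 0.0140). The cholesterol exporter gene Abcg1 rose by 0.38 (SE 0.09, adjusted p = 0.00548) and Fkbp5 by 0.48 (SE 0.13, adjusted p = 0.0248) at 72 h. Hsd11b2, which inactivates glucocorticoids, fell by 0.41 (SE 0.10, adjusted p = 0.0190). Erythroid markers were called higher for 8 of 8 at both times and Kupffer cell markers for 6 of 7 at 72 h, and their part in these values was not tested.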
